A study of Arabidopsis with 6 samples.

Results

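A set of 93 Arabidopsis genes was at least 2-fold higher after 0.5 h of light in a line labelled PCD8 RNAi-21 while staying below a set limit of increase over the same time in the wild type (WT). The genes were chosen on the log2(FPKM + 1) scale, where FPKM is a level scaled for transcript length and library size. The RNAi-21 value at 0.5 h had to exceed its value at 0 h by at least 1, and the same difference in WT had to be below 0.5, with no lower limit, with the filter that some library reached an FPKM of 1. Of 19763 genes listed, 18441 passed that filter, and 329 of them were higher by at least 1 in RNAi-21 (1.78% of genes tested). The 93 members are 28.3% of those 329 and 0.504% of genes tested. A further 126 genes lay between 0.5 and 1 in WT, and 110 reached 1 in both genotypes. A difference of at least 1 in RNAi-21 itself requires an FPKM of at least 1 there at 0.5 h, so the filter removed no member. Of the 93 members, 28 stayed below an FPKM of 5 in the RNAi-21 library at 0.5 h.

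The study holds 6 groups of 1 library. WT and RNAi-21 mutant seedlings spent 4 days in darkness and were then taken without light (0 h) or after light for 0.5 h or for 2 h. Plants grew at 22 °C on MS medium at reduced strength with 0.7% agar, the light was 120 μmol per m2 and s, and the tissue is given as leaf. RNA interference directed at PCD8 is what separates the genotypes as far as the labels say; the sources used here do not give the promoter driving it, how many plants a library holds or whether RNAi-21 is 1 of several lines. PCD8 is not a name in the gene table used, so the target transcript is not analysed here and the RNAi-21 labels have no check from it. With 1 library a group no difference below has a replicate error or a test, and the read depth behind the FPKM is unknown. Libraries from seedlings left in darkness for 0.5 or 2 h more were not used here, so the effect of light and that of time cannot be told apart. Summed FPKM ran from 757504 to 891009 per library. Among 32 photosynthesis genes the summed FPKM was lowest, at 8528, in RNAi-21 at 0.5 h, against 14190 in WT at 0.5 h, and between 11887 and 21723 in the other 4 libraries. At 0.5 h 29 of these 32 genes were lower in RNAi-21 than in WT (10044 of 18441 genes tested were), with a median of -0.53. The part of this difference between libraries in the choice of the members was not tested. In the tissue labelled leaf, 15 root marker genes summed to between 8562 and 12501. In these bulk samples fewer cells of a type and less RNA per cell cannot be told apart.

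Light on a dark-grown seedling starts greening and ends rapid stem growth within hours, and it exposes tissue that has not yet built its photosynthetic machinery to excess energy. Abscisic acid is the hormone of water deficit and seed maturation. It acts through receptors that inhibit PP2C phosphatases such as ABI1 and ABI2, which frees kinases that activate ABF transcription factors, and dehydrin, LEA and cold-regulated genes are their classic targets. Many of these genes also respond to light, cold and osmotic stress, so their transcripts do not report the hormone alone.

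The data used to choose the members set every contrast among the 0 h and 0.5 h libraries, and those contrasts are given as a description. In RNAi-21 the members' difference from 0 to 0.5 h had a median of 1.16, with 14 members at 1.5 or more and 4 at 2 or more. In WT the median was 0.25, with 73 of 93 members above 0, 47 of them between 0.25 and 0.5, and 4 at -1 or below. The word "only" in the working description of these genes therefore refers to the thresholds and not to a flat WT. Just inside the RNAi-21 threshold stood an unnamed locus at 1.002 and the abscisic acid responsive HVA22D at 1.003, and just outside it AT1G30070 at 0.997 and AT1G52855 at 0.993. At the WT threshold, PDC2 and AT1G36630 lay just inside at 0.497, and BBX19 at 0.500 and AT3G59450 at 0.502 just outside. Directly between genotypes at 0.5 h, 26 of 93 members were at least 2-fold higher in RNAi-21 (0.841% of genes tested were).

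**Figure D1:**
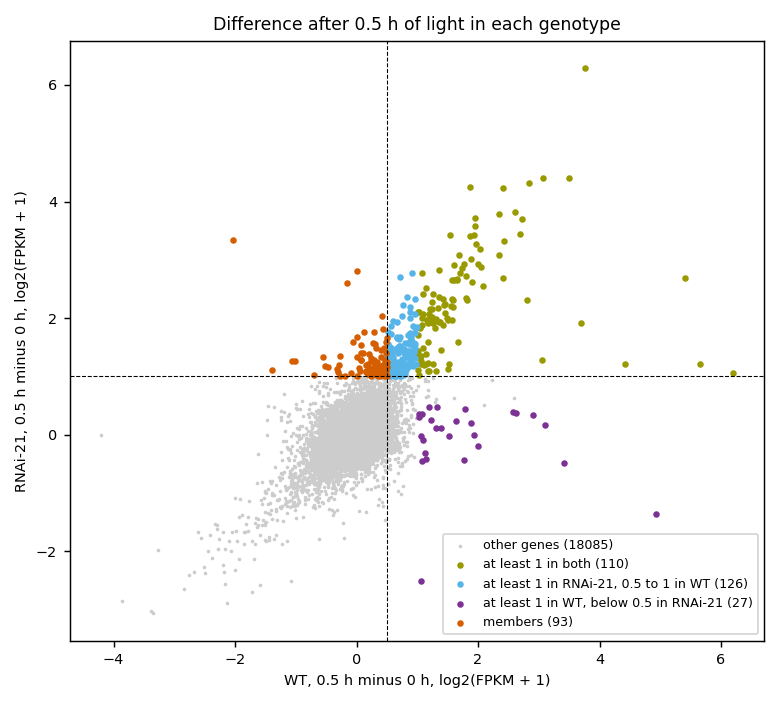
Difference between 0.5 h and 0 h of light in WT (horizontal) and in RNAi-21 (vertical), both in log2(FPKM + 1), 1 point per gene tested and 1 library behind each value. The 93 members fill the corner left of 0.5 and above 1, next to the 126 genes that lie between 0.5 and 1 in WT, while 27 genes met the mirror-image rule.

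Most of the members were higher in WT too by 2 h. In WT, 63 of 93 members (67.7%) were at least 2-fold higher at 2 h than at 0 h, against 7.8% of all genes tested, and 3 were at least 2-fold lower, against 4.56%. The members' median WT difference from 0 to 2 h was 1.77, and that of all genes was -0.02. Of the 17 members that were lower at 0.5 h than at 0 h in WT, 6 (35.3%) were at least 2-fold higher at 2 h, with a median of -0.015. The 0 h and 0.5 h libraries of both genotypes entered the rule, so every difference from them to 2 h is a description, and the shares over all genes are no measure of chance. Set against the WT library at 0.5 h, 58 members were at least 2-fold higher at 2 h (6.68% of genes tested), while the level of 2 was at least 2-fold lower (2.59%). Of the 93 members, 74 in RNAi-21 were at least 2-fold higher at 2 h than at 0 h (8.85% of genes tested), with a median of 1.94, and none was 2-fold lower (4.37%). From 0.5 to 2 h in RNAi-21, 36 members were at least 2-fold higher (6.49% of genes tested). The WT level at 2 h was above the RNAi-21 level at 0.5 h for 67 of 93 members, as it was for 9405 of 18441 genes tested. The median FPKM of the members went from 4.505 through 5.61 to 24.3 in WT, and from 3.86 through 10.3 to 21.8 in RNAi-21. Over all genes tested that median stayed between 10.8 and 11.3 in the 6 libraries.

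Apart from the filter on low values, the 2 libraries taken at 2 h were not used to choose the members. Between them, 76 of 93 members differed by less than 0.5 (92.3% of all genes tested did), with a median RNAi-21 minus WT difference of 0.03 against -0.02 over all genes. The middle 50% of the members lay between -0.16 and 0.31. RNAi-21 stood at least 2-fold above WT in 4 members (0.575% of genes tested) and at least 2-fold below it in 2 (0.222%). These 6 were named because of their small number. The higher 4 are the microRNA gene MIR825 (3.12 in RNAi-21, below 0.001 in WT), AT1G76640 (2.40 and 0.108), AT1G51920 (3.88 and 0.880) and the plastid locus ATCG00210 (1.36, and listed at 0 in WT). The lower 2 are AT4G14280, listed at 41.0 in WT and at 0 in RNAi-21, and the ribosomal RNA locus AT3G41768, at 2313 and 1141. Of the 40 members that have a symbol and reached an FPKM of 5 at 0.5 h in RNAi-21, none differed 2-fold between genotypes at 2 h, although KIN2 reached 1.03 with median-ratio scaling of the libraries.

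**Figure D2:**
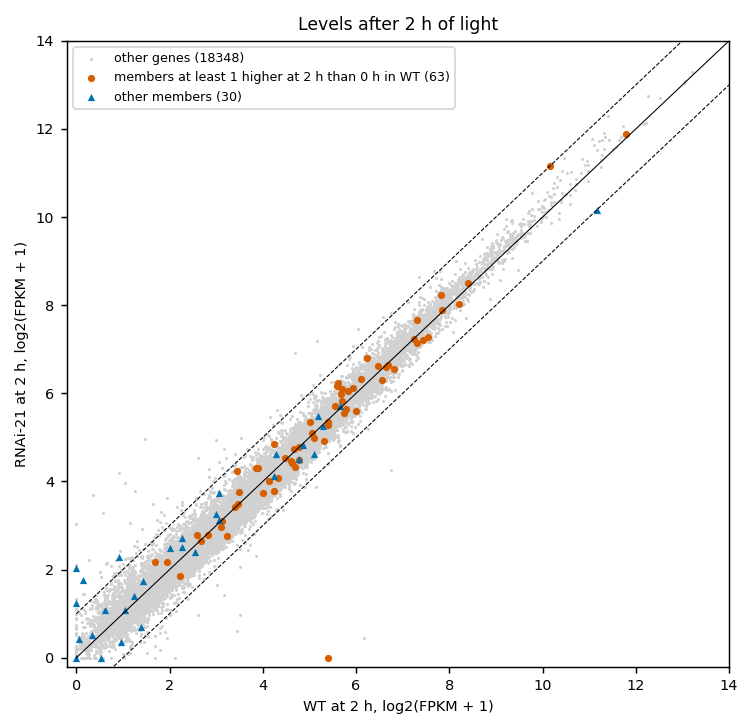
Levels after 2 h of light in WT (horizontal) and RNAi-21 (vertical) in log2(FPKM + 1), 1 library each. The solid line marks equal levels and the dashed lines a difference of 1. Of the 62 members raised by 2 h in both genotypes 55 lie within 0.5 of the solid line, where 92.3% of genes tested do. Both 2 h libraries entered the choice of these 62, so their closeness to the line is a description. Among the 62 KIN2 is farthest from the line at 0.99. AT4G14280, not among them, is listed at 0 in RNAi-21.

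Genes of abscisic acid response and dehydration make up 13 members, assigned by their known roles after the member list was seen. Of these, 11 were at least 2-fold higher at 2 h than at 0 h in WT. The same number was reached in RNAi-21. Of all members 67.7% were in WT and 79.6% in RNAi-21, and of genes tested 7.8% and 8.85%. These shares apply to each role group below. RD20, a calcium-binding caleosin of lipid droplets, had an FPKM of 4.52, 6.41 and 31.2 in WT at 0, 0.5 and 2 h, and of 3.63, 18.1 and 39.9 in RNAi-21. The difference from dark to 0.5 h was thus 2.04 in RNAi-21 and 0.43 in WT on the log2 scale, while the 2 h libraries differed by 0.34. KIN2, a small cold- and abscisic acid-induced protein, stood at 48.2, 52.4 and 1141 in WT and at 44.4, 153 and 2267 in RNAi-21. The 0.5 h library of RNAi-21 was the only one of the dark and 0.5 h libraries above 100 for KIN2, and its 2 h difference of 0.99 was the highest among those 40 members. KIN2 lies in a pair of similar genes with KIN1, so their separate values are uncertain. KIN1 was no member, its RNAi-21 difference being 0.88, and had an FPKM of 2.07 for WT and 8.50 for RNAi-21 at 0.5 h.

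LTI65, also called RD29B and a standard abscisic acid marker, had an FPKM of 27.6, 28.3 and 158 in WT and of 27.6, 62.0 and 141 in RNAi-21. Its level was the same in both dark libraries and flat for 0.5 h in WT only. HB-12, a homeodomain-leucine zipper factor of water deficit, went from 37.2 to 52.9 and 111 in WT and from 37.6 to 121 and 92.8 in RNAi-21, so the RNAi-21 library at 0.5 h already exceeded WT at 2 h. MAPKKK18, an abscisic acid-induced kinase, stood at 1.09, 1.62 and 26.51 in WT against 1.399, 5.75 and 21.4 in RNAi-21. TSPO, a stress-induced membrane protein that binds haem, was at 64.9, 68.0 and 293 in WT and at 46.2, 114 and 260 in RNAi-21. Here the dark level was lower in RNAi-21, by 0.48, which adds to its difference over time.

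Other genes of this group encode membrane, protective and stomatal proteins. The cold-regulated membrane protein gene COR413-PM1 was the most abundant, at 307, 408 and 3526 in WT and 302, 689 and 3792 in RNAi-21. LEA18, a late embryogenesis abundant protein, stood at 15.9, 20.4 and 74.6 in WT and at 15.6, 38.7 and 111 in RNAi-21. MYBR1, also called MYB44 and a regulator of stomatal closure, was at 92.8, 131 and 225 in WT and 96.9, 209 and 300.0 in RNAi-21. ABCG22, a transporter needed for stomatal control, reached 39.0 at 2 h in WT and 29.1 in RNAi-21, from 8.08 and 14.7 at 0.5 h. Of the remaining members in the group, the phosphatase gene ABI2 and AtLEA4-1 were the 2 that did not become 2-fold higher by 2 h in either genotype. ABI2 went from 17.9 to 24.6 and 33.0 in WT and from 15.2 to 33.2 and 23.7 in RNAi-21, whose 2 h difference of -0.46 was the lowest among those 40 members. AtLEA4-1 was at 4.25, 3.93 and 7.37 in WT and at 3.86, 9.16 and 7.73 in RNAi-21.

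**Figure D3:**
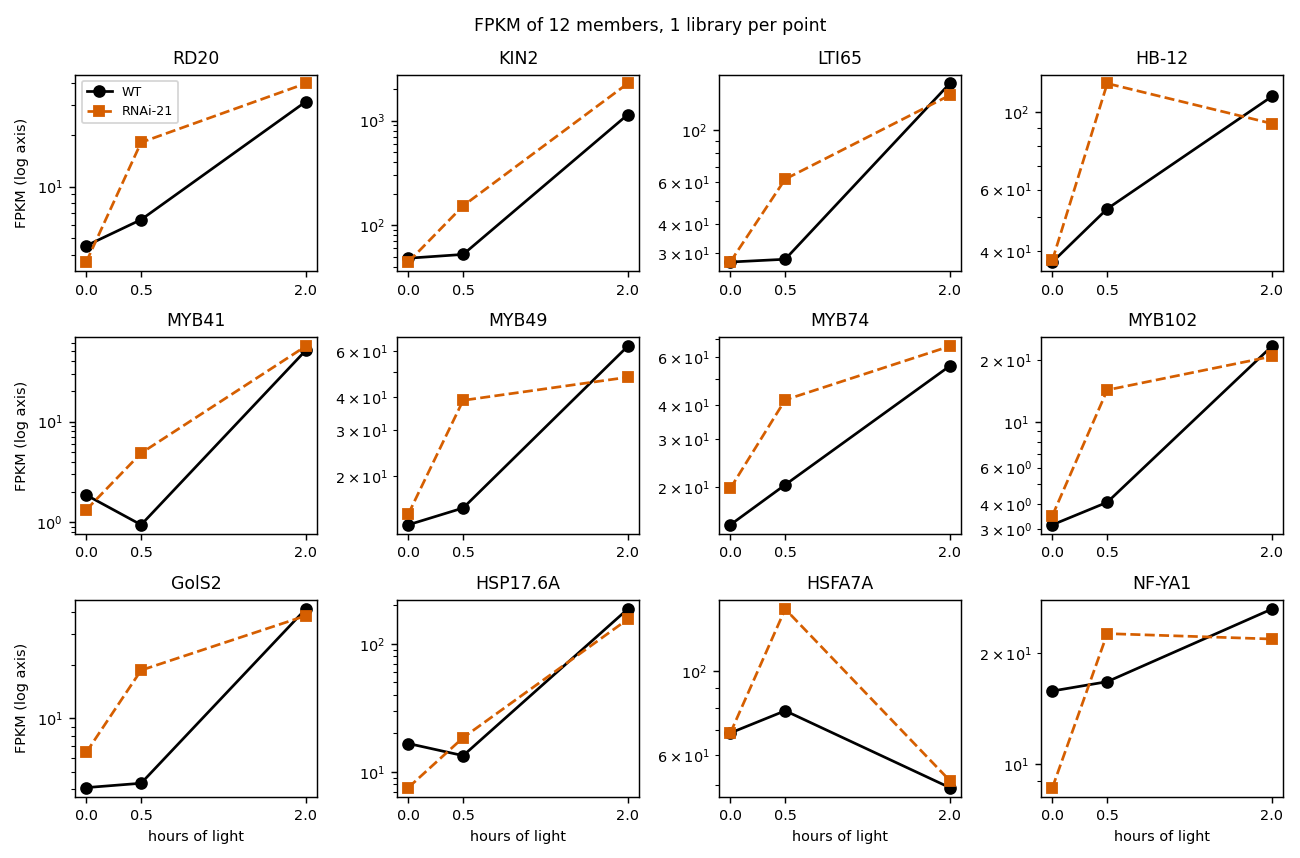
FPKM (log axis) of 12 members against hours of light, with WT as circles and solid lines, RNAi-21 as squares and dashed lines, and 1 library per point. In RD20, LTI65, GolS2 and the MYB genes RNAi-21 lies above WT at 0.5 h and the genotypes differ by less than 0.5 (log2) at 2 h, in KIN2 they differ by 0.99 at 2 h, and HSFA7A stands at 146 in RNAi-21 at 0.5 h and near 50 in both genotypes at 2 h.

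Raffinose sugars protect dehydrating cells, and 3 members act in their supply. All 3 were at least 2-fold higher by 2 h in both genotypes (7.8% of genes tested were in WT and 8.85% in RNAi-21). GolS2, a galactinol synthase that makes the galactosyl donor, was at 4.07, 4.31 and 41.4 in WT and at 6.42, 18.7 and 37.9 in RNAi-21. WT stayed flat to 0.5 h while RNAi-21 differed from its own dark library by 1.41, and at 2 h the genotypes differed by -0.12. GolS3, a second galactinol synthase, was weak, at an FPKM of 0.383 to 3.54. MIPS2, which feeds the pathway with inositol, was at 5.88, 8.17 and 52.2 in WT and at 4.48, 10.2 and 46.0 in RNAi-21. GolS1, a close relative that was no member, differed by 0.30 in RNAi-21 and 0.35 in WT at 0.5 h.

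A list of 42 abscisic acid, dehydration and raffinose genes, of which 37 were tested, shows how the members sit among their pathway. In RNAi-21 14 of the 37 were at least 2-fold higher at 0.5 h against 1.78% of genes tested, and 6 of these were members, 42.9% of the 14 against 28.3% of the 329. Those 6 are RD20, KIN2, LTI65, GolS2, GolS3 and ABI2. In WT 5 of the 37 reached that difference at 0.5 h (0.819% of genes tested did), and 28 reached it at 2 h in each genotype (7.8% of genes tested in WT and 8.85% in RNAi-21). At 0.5 h 33 of 37 were higher in RNAi-21 than in WT, with a median of 0.46, and without the 6 members 27 of 31 were, with a median of 0.42. Over all genes tested 8391 of 18441 were, and the median was -0.03. This shift was not particular to the abscisic acid list. At 0.5 h 17 of 19 heat shock genes (median 0.70) were higher in RNAi-21. So were 27 of 34 light signalling and clock genes (0.41) and 43 of 56 early stress genes (0.24). The photosynthesis and dark starvation lists went the other way, with 29 of 32 and 11 of 12 genes lower. In the dark the median of the abscisic acid list was 0.06. At 2 h the list median was -0.16, with 22 of 37 lower in RNAi-21, as were 9739 of 18441 genes tested. Both the 0.5 h and the 2 h signs of the median were the same with the libraries scaled by median ratios and with organelle genes left out.

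The 8 genes of the list that reached 1 in RNAi-21 at 0.5 h without being members did so with a WT difference of at least 0.5. LTI78, also called RD29A, went from 8.03 to 17.5 in WT and from 9.73 to 45.4 in RNAi-21. NCED3, the enzyme that limits abscisic acid synthesis, went from 14.2 to 26.9 and then 22.5 in WT, and from 12.9 to 45.7 and back to 13.1 in RNAi-21. The phosphatase genes HAI1 and ABI1 differed by 1.93 and 1.49 in RNAi-21 and by 0.66 and 1.09 in WT at 0.5 h. Other genes of the list were flat in both genotypes at 0.5 h and higher at 2 h, such as the dehydrin genes COR47 (0.02 in RNAi-21 and -0.03 in WT at 0.5 h) and LTI30 (0.17 and 0.02). COR15A and COR15B, cold-regulated plastid proteins, were near 0 in the first 4 libraries and differed by 1.27 and 1.13 in favour of RNAi-21 at 2 h.

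**Figure D4:**
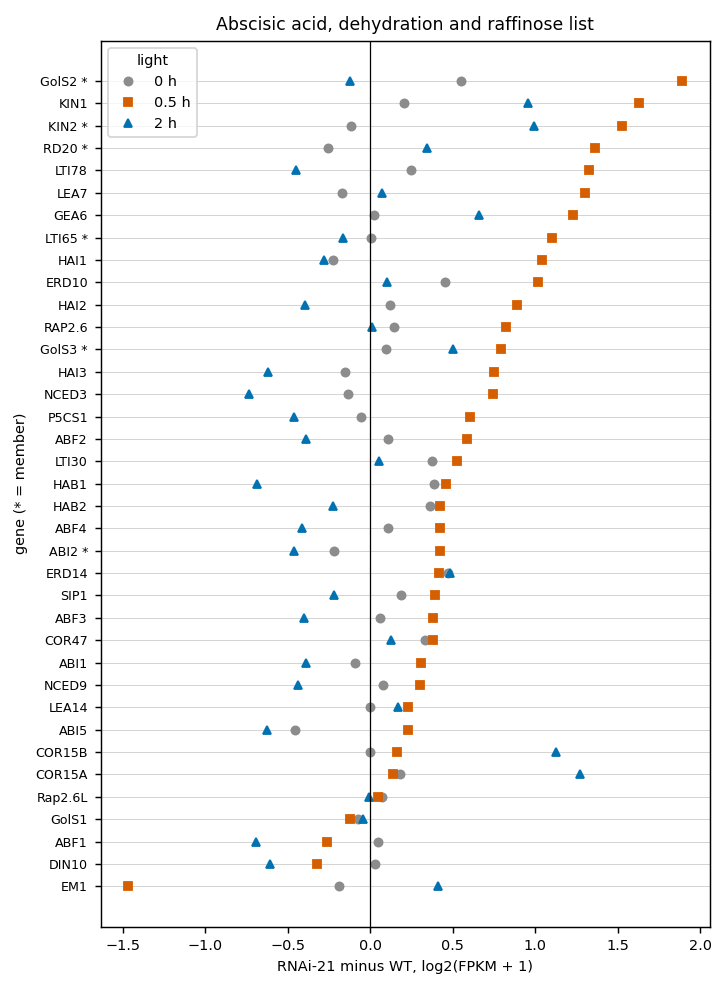
RNAi-21 minus WT in log2(FPKM + 1) for the 37 tested genes of the abscisic acid, dehydration and raffinose list at 0 h (circles), 0.5 h (squares) and 2 h (triangles), with members starred and 1 library on each side. At 0.5 h 33 of 37 squares lie right of 0, where 8391 of 18441 genes tested do. At 2 h 22 of 37 triangles lie left of 0, where 9739 of 18441 genes tested do.

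Among 8 members that encode transcription factors with no other group, 4 are R2R3-MYB genes of closely related sequence: MYB41, MYB49, MYB74 and MYB102, regulators named in wounding, osmotic stress and the suberin barrier. They are named as a family after their values were seen. MYB102 was at 3.16, 4.07 and 23.4 in WT and at 3.502, 14.3 and 20.9 in RNAi-21. MYB49 went from 13.03 to 15.1 and 62.5 in WT and from 14.3 to 38.9 and 47.6 in RNAi-21. MYB41 stood at 1.87, 0.948 and 50.9 in WT and at 1.34, 4.87 and 56 in RNAi-21, and MYB74 at 14.6, 20.4 and 55.7 against 19.8, 41.8 and 65.7. In all 4 genes the WT level at 0.5 h was below the RNAi-21 level at 0.5 h, and WT at 2 h was above it. There were 73 genes tested whose symbol is MYB and a number, which leaves out the member MYBR1. Of these 73, the 4 named were the only members (5.48%, against 0.504% of genes tested). In RNAi-21 at 0.5 h, 6 of the 73 were at least 2-fold higher (1.78% of genes tested were).

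The other transcription factors followed less uniform courses. NF-YA1, a subunit of the CCAAT-binding complex, was at 15.8, 16.7 and 26.3 in WT and at 8.62, 22.5 and 21.8 in RNAi-21, where the low dark value carries much of the difference. TCP9 was at 13.4, 18.6 and 18.4 in WT and at 8.40, 20.2 and 23.57 in RNAi-21, so the 0.5 h libraries differed by only 0.12. UNE10, a basic helix-loop-helix factor related to the PIFs, reached 13.8 in WT and 18.7 in RNAi-21 at 2 h. RRTF1, a redox-responsive ERF, was at or below 0.352 in 5 libraries and at 1.37 in RNAi-21 at 0.5 h. Of the 56 tested genes of the early stress list, 19 were at least 2-fold higher at 0.5 h in RNAi-21 and 14 in WT. Over all genes tested 1.78% and 0.819% were. RRTF1 and the calmodulin-like CML38 were the 2 members in that list (0.504% of genes tested are members).

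Heat and protein folding genes numbered 5, and they split by their 2 h level. HSFA7A, a heat shock factor, was at 68.6, 78.5 and 49.1 in WT and at 68.5, 146 and 51.2 in RNAi-21, so that 1 library stood above the other 5. HSP17.6A, a small cytosolic heat shock protein, was at 16.7, 13.4 and 187 in WT and at 7.55, 18.5 and 155 in RNAi-21, with a dark level lower by 1.05 in RNAi-21. PDX1.2, a non-catalytic partner in vitamin B6 synthesis, went from 12.9 to 18.5 and 32.4 in WT and from 9.88 to 31.7 and 33.1 in RNAi-21. HSP70T-2 and the endoplasmic reticulum cochaperone ATERDJ3A reached 24.7 and 7.55 in WT at 2 h and 19.2 and 6.79 in RNAi-21. In the heat shock list of 19 tested genes, 13 were at least 2-fold higher at 0.5 h in RNAi-21 and 7 in WT. Over all genes tested 1.78% and 0.819% were. At 0.5 h 17 of the 19 were higher in RNAi-21 than in WT, as were 8391 of 18441 genes tested. Only HSFA7A and HSP17.6A of that list had a WT value under 0.5 together with an RNAi-21 value of at least 1 (0.504% of genes tested did).

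In the list of light signalling and clock genes 23 of 34 tested genes were at least 2-fold higher at 0.5 h in RNAi-21 and 16 in WT, against 1.78% and 0.819% of genes tested, and none was a member. Outside the list, the clock-regulated gene AT3G54500, with LNK2 among its synonyms, was a member at 29.1, 38.3 and 93.4 in WT and 19.9, 42.0 and 77.4 in RNAi-21. The photosynthesis list of 32, the flavonoid list of 18, the detoxification list of 29, the jasmonate list of 21, the salicylate and defence list of 13, the auxin and growth list of 29 and the dark starvation list of 12 tested genes held no member either. Members are 0.504% of genes tested, so the lack of a member in these lists and in the light list tells little about them. Chloroplast and light genes outside those lists gave 4 members. All 4 were at least 2-fold higher at 2 h in both genotypes (7.8% of genes tested were in WT and 8.85% in RNAi-21). CDSP32, a drought-induced plastid thioredoxin, was at 1.69, 2.35 and 50.9 in WT and at 1.57, 4.30 and 67.7 in RNAi-21. CGLD27, BETA-OHASE 2, which hydroxylates carotene to xanthophylls, and CRY3, a photolyase-like cryptochrome of the organelles, reached 50.4, 18.9 and 26.3 in WT at 2 h and 62.2, 15.9 and 26.4 in RNAi-21.

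All 7 members assigned to metabolism and transport were at least 2-fold higher at 2 h in both genotypes. Of genes tested 7.8% were in WT and 8.85% in RNAi-21. The 7 had RNAi-21 minus WT differences of -0.24 to 0.46 at that time. The glycerol-3-phosphate permease gene G3Pp1 was flat to 0.5 h in WT (9.37 and 9.79) and went from 10.6 to 23.64 in RNAi-21, and at 2 h it stood at 67.5 and 79.6. IGMT2, a methyltransferase of indole glucosinolates, went from 5.12 to 4.08 and 13.4 in WT and from 3.43 to 10.3 and 18.8 in RNAi-21. It belongs to a tandem group of similar genes, so its own value is uncertain. The amino acid transporter UMAMIT11, the pyruvate decarboxylase PDC2 and the cytochrome c gene CYTC-2 were at 173, 54.1 and 157 in WT at 2 h and at 146, 48.7 and 202 in RNAi-21. BGLU6 and CXE13, at 1.92 and 2.56 in RNAi-21 at 0.5 h, were the weakest of the group.

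Signalling and other genes with a symbol made up 9 members. ENODL2, an early nodulin-like cell surface protein, went from 15.3 to 21.5 and 229 in WT and from 12.9 to 32.8 and 235 in RNAi-21. RLP1, a receptor-like protein, was at 2.55, 2.75 and 33.3 in WT and at 1.27, 5.59 and 30.5 in RNAi-21. CML38 stood at 3.88, 5.25 and 7.35 in WT and at 3.10, 7.70 and 12.3 in RNAi-21. Its neighbour in the gene table, AT1G76640, which carries CML39 among its synonyms, is also a member. EXO70H7, ACR8, WAVH2, ARFB1C, EC1.4 and RALFL18 complete the group, the last 3 at an FPKM below 5 in all 6 libraries. CPUORF47, a gene with a conserved upstream reading frame, was at 5.08, 7.08 and 23.8 in WT and at 3.94, 11.4 and 20.5 in RNAi-21, and it overlaps another gene of the table. In all, 16 of the 88 members with a place in the table overlap another gene there, among them MYBR1, PDX1.2, MIPS2, TCP9 and RRTF1, and without stated strand their reads cannot be told apart from those of the partner.

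**Figure D5:**
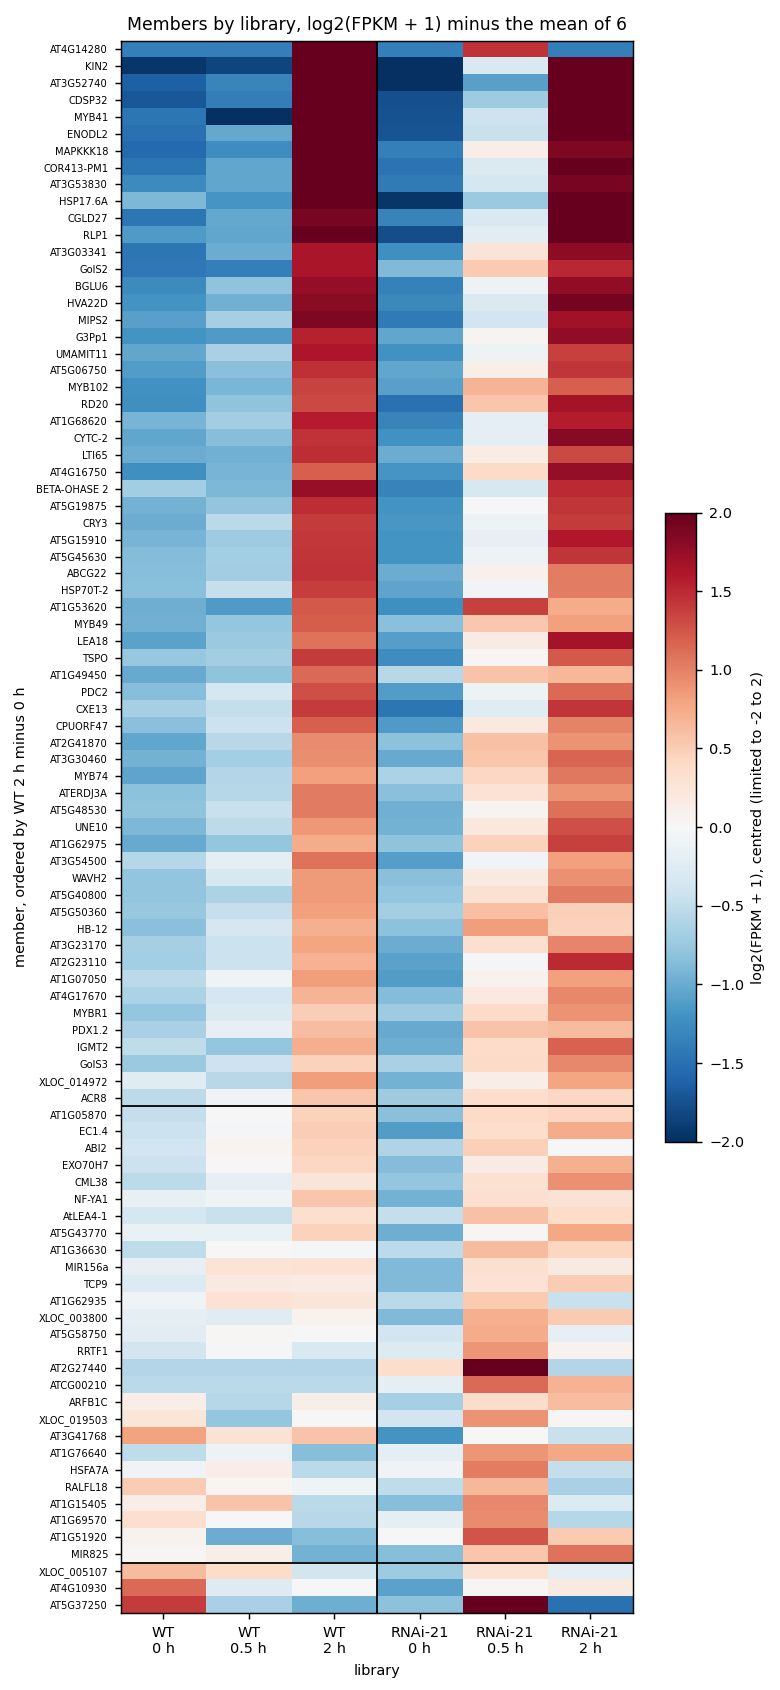
All 93 members (rows, ordered by the WT difference between 2 h and 0 h) in the 6 libraries, as log2(FPKM + 1) minus the gene's mean over the 6, with colours limited to -2 and 2. Above the upper black line stand the 63 members raised at least 2-fold by 2 h in WT, which are high in both 2 h columns except for AT4G14280, listed at 0 in RNAi-21, and below it the 30 others, of which 18 were not 2-fold higher by 2 h in RNAi-21 either.

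The 30 members that were not at least 2-fold higher at 2 h in WT form a second, weaker part. In RNAi-21 12 of them were at least 2-fold higher at 2 h, against 8.85% of genes tested. Among the 12 are TCP9, NF-YA1, CML38, EXO70H7 and the microRNA gene MIR156a. The other 18 were 2-fold higher in neither genotype. MIR156a, whose product represses SPL factors, was at 12.8, 17.7 and 17.9 in WT and at 7.45, 18.3 and 16.5 in RNAi-21, so that only its dark level stood apart. A high RNAi-21 value at 0.5 h with lower values on both sides was seen, among others, in HSFA7A, in AT1G69570 (52.7, 41.9 and 28.1 in WT, and 36.6, 81.2 and 27.6 in RNAi-21) and in the non-coding RNA gene AT1G15405. From 0.5 to 2 h in RNAi-21, 25 of all 93 members were lower, as were 9672 of 18441 genes tested. The level of 7 members was at least 2-fold lower (2.51% of genes tested).

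Members without an assigned role numbered 44. Of these, 25 were at least 2-fold higher at 2 h in WT (7.8% of genes tested) and 30 in RNAi-21 (8.85%). They include all 6 members that differed at least 2-fold between genotypes at 2 h. The highest RNAi-21 differences at 0.5 h belonged to loci without a symbol, and 2 of the top 3 varied without a common course. AT5G37250 was at 6.41, 0.810 and 0.437 in WT and at 0.608 and 15.4 in RNAi-21, then listed at 0 at 2 h. AT4G14280 was listed at 0 in 4 libraries, at 5.999 in RNAi-21 at 0.5 h and at 41.0 in WT at 2 h. AT1G53620 instead followed the main course, with 1.06, 0.851 and 8.40 in WT and 0.718, 9.39 and 5.78 in RNAi-21. Exact zeros in at least 1 library occurred in 8 members, and these can be failed estimates.

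The rule favours a low dark value in RNAi-21 and a high one in WT. The dark contrasts between genotypes are therefore a description, and the shares over all genes are no measure of chance. In 69 of 93 members the dark level was lower in RNAi-21 than in WT, as it was in 9467 of 18441 genes tested, and for 6 the level was lower by at least 1 on the log2 scale (0.396% of genes tested), HSP17.6A and RALFL18 among them. The ribosomal RNA locus AT3G41768 had an FPKM of 679 in dark RNAi-21 and of 1141 to 2739 in the other 5 libraries. It and 2 weak loci were the 3 members whose RNAi-21 level at 0.5 h did not exceed both the 0 h and the 0.5 h level of WT. The part of this low value in its membership was not tested. In the abscisic acid and dehydration group the dark difference was between -0.48 and 0.20.

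Of the 110 genes at least 2-fold higher at 0.5 h in both genotypes, 101 (91.8%) were also at least 2-fold higher at 2 h in WT. That is more than the 67.7% of members, and 7.8% of genes tested were. The median RNAi-21 minus WT difference of the 110 was 0.66 at 0.5 h and 0.04 at 2 h. Of the 126 genes between the thresholds 102 (81.0%) were at least 2-fold higher at 2 h in WT. Their genotype medians were 0.52 and 0.03, and those of the members 0.72 and 0.03. These sets were cut from the same 4 libraries, so the 0.5 h values are a description. The mirror-image rule, a difference of at least 1 in WT with less than 0.5 in RNAi-21, found 27 genes. None of them was 2-fold higher at 2 h in RNAi-21 (8.85% of genes tested were). In WT 2 (7.41%) were, near the 7.8% of genes tested. Of the 13 tested seed markers 5 are among the 27, where 27 of 18441 genes tested are. They are CRU2, OLEO1, SESA1, SESA3 and PER1, named outside the rule for named genes. At 0.5 h 12 of the 13 were at least 2-fold higher than at 0 h in WT and 4 in RNAi-21 (0.819% and 1.78% of genes tested). At that time 12 of the 13 were lower in RNAi-21 than in WT, with a median of -1.75 (10044 of 18441 genes tested were lower). The 13 seed markers summed to 244 in WT at 0.5 h and to between 18.9 and 87.3 in the other 5 libraries. No seed, root, xylem or stomata marker was a member, where 0.504% of genes tested are. The WT library at 0.5 h enters the choice of the members, and the part of its seed transcripts in that choice was not tested.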

How the data were processed

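The files hold 1 value per gene and library. These deposited values were read as FPKM computed by the authors; the unit is named in no header or label and was inferred, as the values are not whole and library sums are unequal. Per the submitters' processing notes HISAT and Bowtie2 were used, with no version stated. How genes were quantified, and on which genome build, is not given in the sources used here. Column headings differ in style, Col for WT at 0 and 0.5 h and WT for 2 h, with no batch given. Names came from the RefSeq table of assembly TAIR10.1, which matched 19532 of 19763 identifiers; 52 members have a symbol there.

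Values were transformed as log2(FPKM + 1) after a filter of at least 1 in any library. No test was possible with 1 library a group, so differences of at least 1, called 2-fold, were counted. No precision can be derived from depth, which is unknown. The rule was checked on simulated data. The members, the 11 gene lists and 4 marker lists were chosen with earlier results of these data known.

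Genes named were, among members that have a symbol and reached an FPKM of 5 in RNAi-21 at 0.5 h, the 15 with the highest RNAi-21 response and the 5 highest and 5 lowest for the WT difference from 0 to 2 h and for the genotype difference at 2 h; up to 4 members of each list; the 3 highest without a symbol; and the 2 genes nearest to each threshold on each side. Other genes are named outside this rule, to complete the role groups, which were assigned after seeing the members. Alternatives were a pseudocount of 0.1, filters of 0 and 5, 2 scalings and other thresholds. Python 3.11.15, pandas 2.3.3, numpy 2.4.6 and matplotlib 3.10.9 were used. No sequence is shown.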

Additional observations from a re-analysis of the deposited data

Results flagged for a closer look

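In 4 members the genotypes moved in opposite directions by at least 1 after 0.5 h of light, a difference between groups that was not tested and that the rule itself favours. The RNAi-21 minus WT difference of the responses was 5.38 for AT5G37250, 2.49 for AT4G10930, 2.33 for AT1G51920 and 2.28 for the unnamed locus XLOC_019503. AT4G10930 also moved in opposite directions at 2 h, by 2.37, its dark FPKM being 4.13 for WT and 0.116 for RNAi-21. All 4 were below an FPKM of 16 in all 6 libraries.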

How the results depend on the processing

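No paired analysis was possible because each group holds 1 library, and none could be left out in turn. Values are given in the order members, those 2-fold higher at 2 h in WT with their share, those 2-fold higher at 2 h in RNAi-21, those at 2 h with RNAi-21 at least 2-fold above WT and those 2-fold below it, the median genotype difference at 2 h and the median WT difference from 0 to 2 h. As reported they were 93, 63 (67.7%), 74, 4, 2, 0.03 and 1.77. With a pseudocount of 0.1 they were 194, 104 (53.6%), 148, 20, 10, 0.15 and 1.33, and 72 of the 93 members were among the 194. Without a filter none of these values could change, because a difference of 1 in RNAi-21 already requires an FPKM of at least 1. The share of all genes 2-fold higher at 2 h in WT then moved from 7.8% to 7.28%. With a filter of 5 the values were 77, 60 (77.9%), 66, 1, 2, 0.0012 and 2.13. That filter can be passed through a 2 h library alone, which favours weak members that are high at 2 h. Its share and medians are therefore a description. With median-ratio scaling they were 99, 68 (68.7%), 78, 5, 2, 0.076 and 1.82. With organelle genes left out and totals equalised they were 86, 61 (70.9%), 68, 3, 2, -0.046 and 1.85, where the genotype median turns sign while that of all genes moves from -0.02 to -0.12; 74 of the 93 members stayed. With an RNAi-21 threshold of 1.5 they were 14, 10 (71.4%), 10, 0, 1, 0.014 and 2.03. With a WT limit of 0 they were 17, 6 (35.3%), 9, 1, 1, 0.03 and -0.015. That limit favours a high WT value at 0 h, which the WT difference from 0 to 2 h subtracts, so its median is a description. With a WT limit of 1 they were 219, 165 (75.3%), 181, 6, 4, 0.03 and 1.90. Added after seeing the data, members with an FPKM of at least 5 in RNAi-21 at 0.5 h gave 65, 48 (73.8%), 54, 1, 2, 0.0012 and 2.03. Members also 2-fold higher in RNAi-21 than in WT at 0.5 h gave 26, 20 (76.9%), 19, 2, 1, 0.015 and 2.16, and nuclear members of the gene table above 0 in all libraries without ribosomal RNA gave 81, 60 (74.1%), 70, 3, 0, 0.03 and 1.98. The last of these settings also uses the 2 h libraries to choose members, so its 2 h values are a description. The cause of these shifts was not tested. Unknown depth limits the weak members most.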
